A study of Mus musculus with 4 samples.

Results

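Among the 36884 cell barcodes of flow-sorted mouse mammary gland, 154 carried the transcripts of white blood cells. They were selected on measured values: at least 5 summed unique molecular identifiers (UMIs, one per captured transcript molecule) of Ptprc, Laptm5, Coro1a and Cd53, a summed level of Col1a1, Col1a2, Col3a1, Dcn and Lum under 30 counts per 10000 UMIs (CP10k), and fewer than 3 summed UMIs of Pecam1, Cdh5 and Egfl7. The 56 with at least 2 UMIs of Cd3e, Cd3d and Cd3g were called T cells and the other 98 other leukocytes. Whatever these genes show is therefore a description of how the barcodes were chosen, and differences between leukocytes and the remaining 36730 barcodes, or between T cells and other leukocytes, were not tested.

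The study profiled mammary epithelium of C57BL/B6 mice with droplet 3′ single-cell RNA sequencing, in 4 libraries: Zeb1 MSKO at 9 weeks and at 8 weeks, and control at 9 weeks and at 8 weeks, so n = 2 per genotype and 2 per age. Zeb1 encodes a zinc-finger repressor known for its part in epithelial to mesenchymal transition. The labels do not expand MSKO, name the deleted part of Zeb1 or a Cre driver, or say whether each library is a separate animal or a pool, so the p-values describe variation among these libraries only, which may be technical. The sort's surface markers were not given in the sources used here. No treatment is named for either genotype.

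Leukocytes are the cells of the immune system that reach tissues from blood and lymph. In the mammary gland, macrophages and dendritic cells lie in and around the ducts, T cells lie between epithelial cells and in the stroma, and B cells and antibody-secreting plasma cells are found in the stroma and in the lymph node of the fat pad. Ptprc encodes CD45, the surface phosphatase that defines the lineage; Laptm5 is a lysosomal protein of blood cells, Coro1a an actin-binding protein and Cd53 a tetraspanin. Cd3e, Cd3d and Cd3g encode chains of the CD3 complex, which carries the signal of the T cell receptor into the cell.

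The CD3 genes, on which the T cells were chosen, stand together on mouse chromosome 9. The 250 bases upstream of each annotated start are shown (RefSeq, GRCm38.p6), because Zeb1 is known to bind the E-box CACCTG, which is in capitals where it occurs on either strand (its reverse complement is CAGGTG); 3 of 3 genes matched the promoter table. The Cd3e window is chr9:45009612-45009861 on the minus strand, the Cd3d window chr9:44981536-44981785 on the plus strand and the Cd3g window chr9:44980432-44980681 on the minus strand.
Cd3e: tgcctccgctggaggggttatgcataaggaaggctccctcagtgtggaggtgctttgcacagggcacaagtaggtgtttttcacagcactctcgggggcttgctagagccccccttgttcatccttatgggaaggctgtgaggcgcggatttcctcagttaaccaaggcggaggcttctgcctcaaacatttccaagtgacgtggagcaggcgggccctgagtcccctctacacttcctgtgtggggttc
Cd3d: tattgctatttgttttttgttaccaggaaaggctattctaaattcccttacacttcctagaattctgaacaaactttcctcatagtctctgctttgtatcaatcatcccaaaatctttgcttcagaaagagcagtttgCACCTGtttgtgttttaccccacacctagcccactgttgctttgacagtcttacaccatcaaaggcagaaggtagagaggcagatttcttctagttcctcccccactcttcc
Cd3g: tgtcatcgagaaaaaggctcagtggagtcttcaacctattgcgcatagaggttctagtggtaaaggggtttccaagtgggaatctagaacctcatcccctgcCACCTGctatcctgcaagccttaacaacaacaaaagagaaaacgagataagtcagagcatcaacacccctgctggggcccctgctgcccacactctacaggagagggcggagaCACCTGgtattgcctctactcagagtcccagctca
The Cd3e window held no CACCTG. The Cd3d window held 1, starting at position -112 counted from the annotated start, and the Cd3g window held 2, at -148 and -35. Of 32851 mouse promoter windows of this length, 5657 (17.2%) held at least 1 copy on either strand, and a match of letters is no evidence of binding.

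Zeb1 itself was measured first. In leukocytes, Zeb1 had 9 UMIs (33.2 counts per 1000000 UMIs, CPM) and 12 UMIs (34.4 CPM) in Zeb1 MSKO at 9 and 8 weeks, against 12 UMIs (54.3 CPM) and 10 UMIs (20.3 CPM) in control at 9 and 8 weeks. The 2 genotypes overlapped. In the barcodes that were not leukocytes, Zeb1 stood at 0.632 and 6.77 CPM in Zeb1 MSKO at 9 and 8 weeks, against 0.365 and 3.76 CPM in control at 9 and 8 weeks. A 3′ UMI count does not check a deletion upstream of the counted end, so these values do not test the labels. T cells held 27 of the 43 leukocyte Zeb1 UMIs, with 47.4 and 67.6 CPM in Zeb1 MSKO and 120 and 48.2 CPM in control at 9 and 8 weeks. Zeb2, the paralogue known from myeloid and effector lymphoid cells, was found mainly in other leukocytes, at 83.0 and 65.3 CPM in Zeb1 MSKO and 0 and 63.3 CPM in control at 9 and 8 weeks. In T cells Zeb2 had 1 and 0 UMIs in Zeb1 MSKO and 3 and 0 UMIs in control at 9 and 8 weeks.

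Leukocytes made up 0.266% of barcodes (26 of 9774, Wilson 95% interval 0.182 to 0.390%) in Zeb1 MSKO at 9 weeks and 0.506% (49 of 9693, 0.383 to 0.668%) in Zeb1 MSKO at 8 weeks. They made up 0.262% (20 of 7627, 0.170 to 0.405%) in control at 9 weeks and 0.603% (59 of 9790, 0.468 to 0.777%) in control at 8 weeks. As a share of all barcodes, the 2 libraries of 9 weeks lay below both of 8 weeks, and the genotypes overlapped. The share was 0.386 ± 0.169% in Zeb1 MSKO and 0.432 ± 0.241% in control (SD, n = 2 each; difference -0.0467 percentage points, exact two-sided permutation p = 1). By age it was 0.264 ± 0.00268% at 9 weeks and 0.554 ± 0.0687% at 8 weeks (difference -0.290 percentage points, exact two-sided permutation p = 0.33, the smallest that 2 libraries against 2 can give). Each age has 1 library per genotype, so age and preparation cannot be told apart. With at least 10 leukocyte UMIs asked of a barcode, the age difference was -0.0857 percentage points.

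The order depended on the barcodes that leukocytes were set against. Among barcodes with a summed level of Krt5, Krt14, Krt8, Krt18, Krt19 and Epcam under 30 CP10k, leukocytes were 3.67% (17 of 463, Wilson 95% interval 2.31 to 5.80%) and 2.62% (45 of 1719, 1.96 to 3.49%) in Zeb1 MSKO at 9 and 8 weeks. They were 8.33% (14 of 168, 5.03 to 13.5%) and 4.64% (45 of 970, 3.49 to 6.15%) in control at 9 and 8 weeks. With this denominator both Zeb1 MSKO libraries lay below both control libraries, each genotype's 9-week library lay above its 8-week library, and the differences were not tested.

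**Figure D1:**
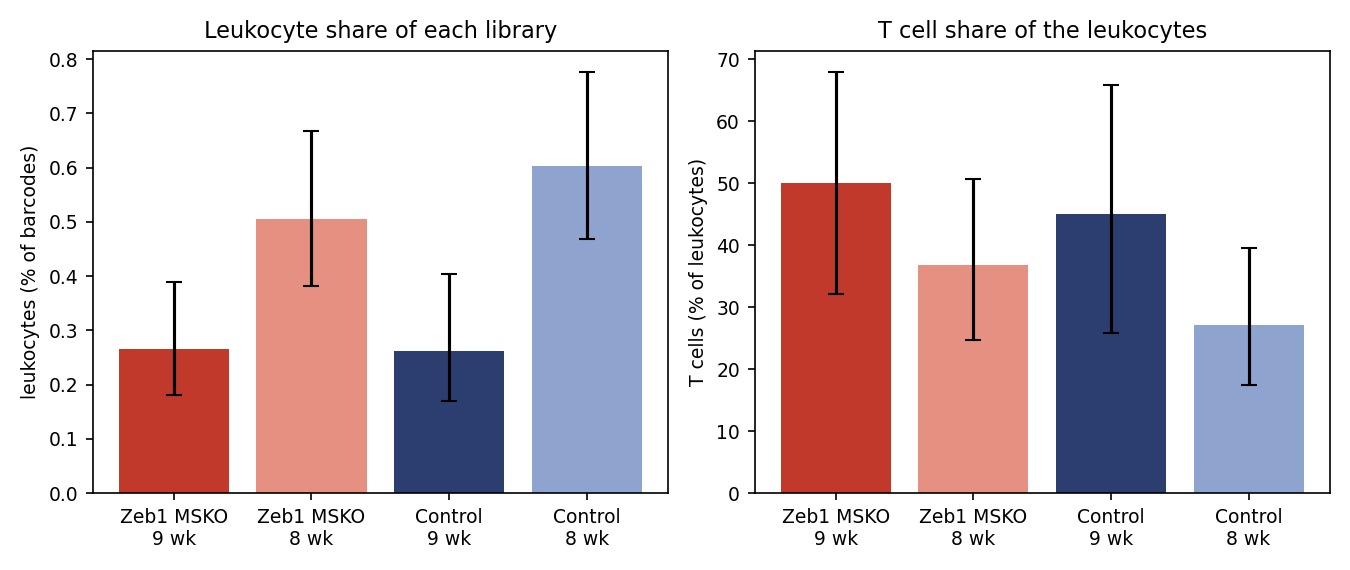
Share of barcodes that are leukocytes (left, %) and share of leukocytes that are T cells (right, %) in each of the 4 libraries; bars are the measured shares and lines their Wilson 95% intervals, which cover counting error only. The leukocyte share is 0.266% and 0.262% in the 9-week libraries and 0.506% and 0.603% in the 8-week libraries, and the T cell intervals of all libraries overlap.

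T cells were 13 of 26 leukocytes (50.0%, Wilson 95% interval 32.1 to 67.9%) in Zeb1 MSKO at 9 weeks and 18 of 49 (36.7%, 24.7 to 50.7%) in Zeb1 MSKO at 8 weeks. They were 9 of 20 (45%, 25.8 to 65.8%) in control at 9 weeks and 16 of 59 (27.1%, 17.4 to 39.6%) in control at 8 weeks. Zeb1 MSKO averaged 43.4 ± 9.38% and control 36.1 ± 12.6% (SD, n = 2 each; difference 7.31 percentage points, exact permutation p = 0.667), and the libraries overlapped. At 9 weeks the mean was 47.5 ± 3.54%, against 31.9 ± 6.80% at 8 weeks (difference 15.6 points, exact permutation p = 0.33). The 8-week libraries were shallower, and after each barcode was thinned to 2000 UMIs the T cell share was 34.6% and 28.6% in Zeb1 MSKO and 30% and 25.4% in control at 9 and 8 weeks, an age difference of 5.31 points; the thinning was added after the data were seen.

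The libraries held 80853204 to 122122443 UMIs in all, and their leukocytes 221077 to 493474. Leukocyte barcodes held a median of 6335 UMIs (range 2591 to 33851), against 8837 in the other barcodes. Just outside the threshold lay 10 barcodes with 4 leukocyte UMIs and 16 with 3, and just inside it 21 with 5 and 16 with 6; 242 barcodes had 1. The endothelial limit removed 3 barcodes and the collagen limit 0. At the CD3 limit, 5 leukocytes had 1 CD3 UMI and 3 had 2. Across libraries 1372 barcodes shared their sequence with a barcode of another library, 5 of them leukocytes, and no sequence was a leukocyte in more than 1 library.

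Epithelial transcripts were present in part of the leukocyte barcodes. The summed level of Krt5, Krt14, Krt8, Krt18, Krt19 and Epcam, keratins and an adhesion molecule of epithelium, reached 30 CP10k in 33 of 154 leukocytes (21.4%), against 33531 of 36730 other barcodes (91.3%). It did so in 9 of 26 and 4 of 49 leukocytes in Zeb1 MSKO at 9 and 8 weeks, and in 6 of 20 and 14 of 59 in control at 9 and 8 weeks. The 33 had a median of 12520 UMIs, and the rest 5549. A doublet caller marked 6 leukocytes, 3 of them among the 33, so those barcodes were kept in the main results and left out in alternatives; whether they are 2 cells in 1 droplet or free RNA was not tested.

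**Figure D2:**
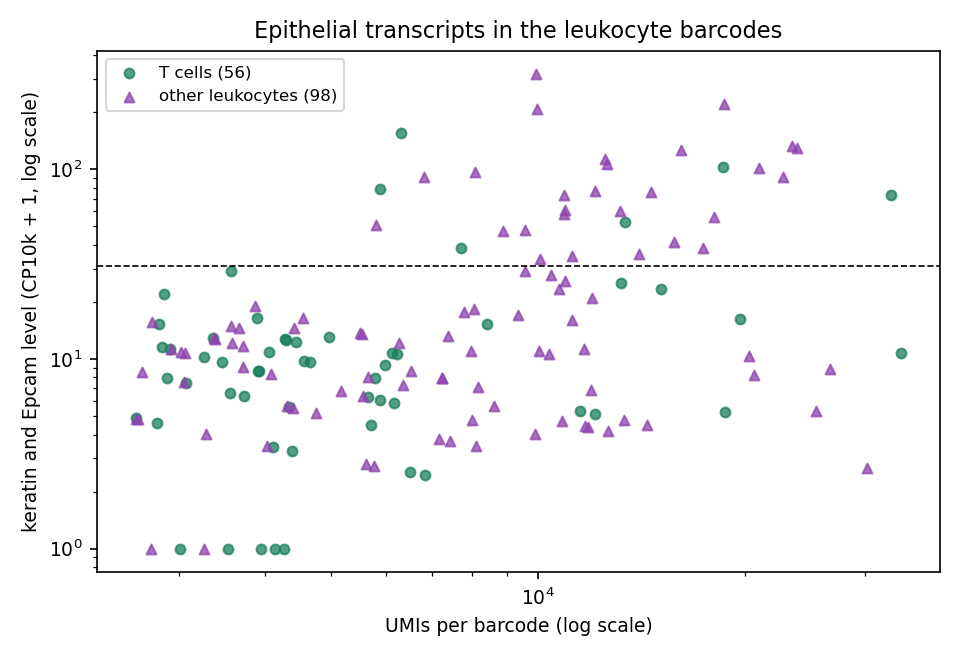
Each point is 1 of the 154 leukocyte barcodes: UMIs per barcode (x, log scale) against the summed keratin and Epcam level (y, CP10k + 1, log scale), for 56 T cells (circles) and 98 other leukocytes (triangles). The dashed line marks 30 CP10k, at or above which lie 6 T cells and 27 other leukocytes.

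T cells carried the receptor chains and the signalling genes behind them. Cd3g had a UMI in 52 of 56 T cells, Cd3d in 51 and Cd3e in 43. Of the genes that the rule did not use, Lat, the adaptor that joins the receptor to its kinases, was detected in 47 of 56, Cd2 in 44, the kinase Lck in 44 and the adaptor Skap1 in 42. In barcodes that were not leukocytes a Lat UMI was found in 0.147%, a Cd2 UMI in 0.0545% and a Lck UMI in 2.45%, at median depths of 4414.5 UMIs in T cells and 8837 in the others. Coro1a was the most abundant of the 4 rule genes in T cells, at 1011 and 1438 CPM in Zeb1 MSKO and 1091 and 928.6 CPM in control at 9 and 8 weeks.

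CD8 transcripts were found in more T cells than CD4 transcripts, but not in every library. A Cd8a or Cd8b1 UMI without Cd4 was found in 25 of 56 T cells (44.6%, Wilson 95% interval 32.4 to 57.6%), Cd4 without either in 10 (17.9%, 10.0 to 29.8%), and neither in 21; UMIs of both were found in 0, which allows a share of T cells with UMIs of both of up to 5.36% (3 counts). Cd8a or Cd8b1 alone was found in 6 of 13 and 10 of 18 T cells in Zeb1 MSKO and in 4 of 9 and 5 of 16 in control at 9 and 8 weeks. Cd4 alone was found in 3 and 1 T cells in Zeb1 MSKO and in 1 and 5 in control, so in control at 8 weeks the 2 counts were equal. Cd8b1 stood at 292 and 570 CPM in Zeb1 MSKO and 168 and 241 CPM in control at 9 and 8 weeks, so Zeb1 MSKO at 9 weeks and control at 8 weeks were close. At this depth a T cell with no Cd4 UMI may still express Cd4, which gave only 12 UMIs in all.

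Genes of naive or recirculating cells were common among the T cells. A UMI of Ccr7, the receptor that guides cells to lymph nodes, was found in 37 of 56 (66.1%), of the transcription factor Lef1 in 29 and of Dapl1 in 18. In barcodes that were not leukocytes, a Ccr7 UMI was found in 0.193%. Ccr7 stood at 371 and 376 CPM in Zeb1 MSKO and 755 and 205 CPM in control at 9 and 8 weeks. Cytotoxic granule genes were rare: Gzma or Gzmb was detected in 5 of 56, and 1 barcode held 96.5% of all Gzma UMIs. Foxp3, the factor of regulatory T cells, was found in 4 of 56, with UMIs in Zeb1 MSKO and control at 8 weeks and none at 9 weeks.

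The B cell (10 genes), macrophage (12), conventional dendritic cell (10), migratory dendritic cell (7) and neutrophil (10) lists were detected in full in other leukocytes. They were also detected in full in the barcodes that were not leukocytes, so detection alone does not set other leukocytes apart. Genes of the B cell receptor were found in many other leukocytes. At least 2 UMIs of Cd79a and Cd79b, the signalling chains of the B cell receptor, and Ms4a1, which encodes CD20, were found in 58 of 98 (59.2%, Wilson 95% interval 49.3 to 68.4%), against 2 of 56 T cells. They were 4 of 13 and 22 of 31 in Zeb1 MSKO and 6 of 11 and 26 of 43 in control at 9 and 8 weeks. Cd79a stood at 138 and 926 CPM in Zeb1 MSKO and 705 and 565 CPM in control at 9 and 8 weeks, lowest in Zeb1 MSKO at 9 weeks.

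Jchain, the joining chain of secreted antibodies, marked 14 of 98 with at least 10 UMIs. These were 0 of 13 and 4 of 31 in Zeb1 MSKO and 1 of 11 and 9 of 43 in control at 9 and 8 weeks. The doublet caller marked 3 leukocytes in Zeb1 MSKO at 8 weeks, and all 3 fell in the Jchain-led cluster described below. Jchain had 0 and 20730 CPM in Zeb1 MSKO and 6996 and 27390 CPM in control at 9 and 8 weeks, so the 8-week libraries lay above both of 9 weeks. Mzb1, a chaperone of antibody secretion, had 6.92 and 1106 CPM in Zeb1 MSKO and 153 and 1559 CPM in control at 9 and 8 weeks, in the same order by age.

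The C1q transcripts sat in few barcodes. C1qa, C1qb and C1qc encode the chains of complement C1q and lie next to each other on chromosome 4 (mm10; C1qa at chr4:136895917-136898803). At least 2 of their UMIs were found in 10 of 98 other leukocytes: 5 of 13 and 3 of 31 in Zeb1 MSKO, and 1 of 11 and 1 of 43 in control, at 9 and 8 weeks. Adgre1, which encodes the macrophage antigen F4/80, was detected in 6 of 98, Csf1r in 14, Cd68 in 16 and Mertk in 2. At least 3 UMIs over the 12 macrophage genes were found in 34 of 98 (34.7%): 12 of 13 and 5 of 31 in Zeb1 MSKO, and 4 of 11 and 13 of 43 in control, at 9 and 8 weeks. The share was 24.4% in barcodes that were not leukocytes, at median depths of 8144 UMIs in other leukocytes and 8837 in the rest. The 12 genes summed to 2850 and 4138 CPM in Zeb1 MSKO and 588.5 and 2640 CPM in control at 9 and 8 weeks. Lyz2, the lysozyme of myeloid cells, had 1467 and 2326 CPM in Zeb1 MSKO and 153 and 2051 CPM in control at 9 and 8 weeks, and control at 9 weeks stood apart.

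Dendritic cell genes were found as well. Xcr1, the chemokine receptor of cross-presenting dendritic cells, had 27 UMIs in 4 barcodes, with 96.9 and 53.1 CPM in Zeb1 MSKO and 0 and 0 CPM in control at 9 and 8 weeks. Clec9a of the same cells was at 69.2 and 8.16 CPM in Zeb1 MSKO and 0 and 4.87 CPM in control at 9 and 8 weeks. Fscn1, an actin-bundling protein of migrating dendritic cells, was at 0 and 208 CPM in Zeb1 MSKO and 225 and 48.7 CPM in control at 9 and 8 weeks, and its genotypes overlapped. Flt3, the growth factor receptor of dendritic cells and their precursors, was detected in 13 of 98.

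The most abundant neutrophil and mast cell genes came from 1 library. S100a8 and S100a9, the calcium-binding proteins of neutrophils, reached at least 10 UMIs in 5 of 98 barcodes, all in control at 8 weeks. Of these 5, 3 also reached the epithelial limit of 30 CP10k. S100a8 stood at 17520 CPM in control at 8 weeks and at 0 in the other 3 libraries. The antimicrobial granule genes Camp and Ngp were at 8666 and 6679 CPM in control at 8 weeks and at 0 elsewhere, and Mpo and Elane, granule enzymes made early in neutrophil development, were detected in 3 and 2 barcodes. Mast cell proteases Cpa3, Tpsb2, Mcpt4 and Cma1 reached at least 2 UMIs in 3 barcodes, also all in control at 8 weeks. In a library of 13 or 11 other leukocytes, 0 barcodes does not show that the cells were absent.

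Leiden clustering of the 154 barcodes gave 10 clusters, numbered 0 to 9 by size. Cluster 0 (33 barcodes, all T cells) was T cell-like: its 10 leading genes, by fold over the other leukocytes, held Cd3d, Cd8b1, Lef1, Tcf7 and Dapl1. Cluster 6 (9, all T cells) was led by Tnfrsf4 and was called regulatory T cell-like by Tnfrsf4, Ikzf2 and Tnfrsf18. Foxp3 was not among its 10 leading genes, and Ikzf2 was found in 4 of its 9 barcodes. Tnfrsf4 and Icos, another leading gene, are on the CD4 T cell list, so the name is loose. Cluster 2 (22) was B cell-like (Fcmr, Ms4a1, Bank1, Cd79a, Cd79b), and cluster 4 (13) plasma cell-like (Jchain, Tnfrsf17, Derl3, Mzb1). Cluster 8 (6) was migratory dendritic cell-like, with Fscn1 and Ccl22 behind Ccl5. Cluster 9 (5) was neutrophil-like, and 3 of its barcodes passed the epithelial limit. The genes named here define the clusters and are no test.

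The other 4 clusters kept their numbers. Cluster 1 (31) was led by Cxcl13 and the mast cell genes Tpsb2 and Cpa3, each found in 3 or fewer of its barcodes, and 22 of its barcodes passed the epithelial limit. Cluster 3 (16) was led by muscle genes, of which 1 barcode held 99.8% of the Acta1 UMIs, ahead of C1qc; it had the highest summed macrophage level of these clusters, a mean of 127 CP10k. Cluster 5 (12, of which 6 were T cells) was led by the division genes Birc5, Nusap1 and Top2a together with Vpreb1 and Vpreb3 of B cell precursors. Cluster 7 (7) was led by Tagln, Acta2 and Krt14 of basal epithelium. By library, cluster 2 held 0 and 11 barcodes in Zeb1 MSKO and 1 and 10 in control at 9 and 8 weeks, and cluster 4 held 0 and 4 in Zeb1 MSKO and 0 and 9 in control. Both thus lay almost wholly in the 8-week libraries. In cluster 4, 3 barcodes were called doublets, all of them in Zeb1 MSKO at 8 weeks.

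**Figure D3:**
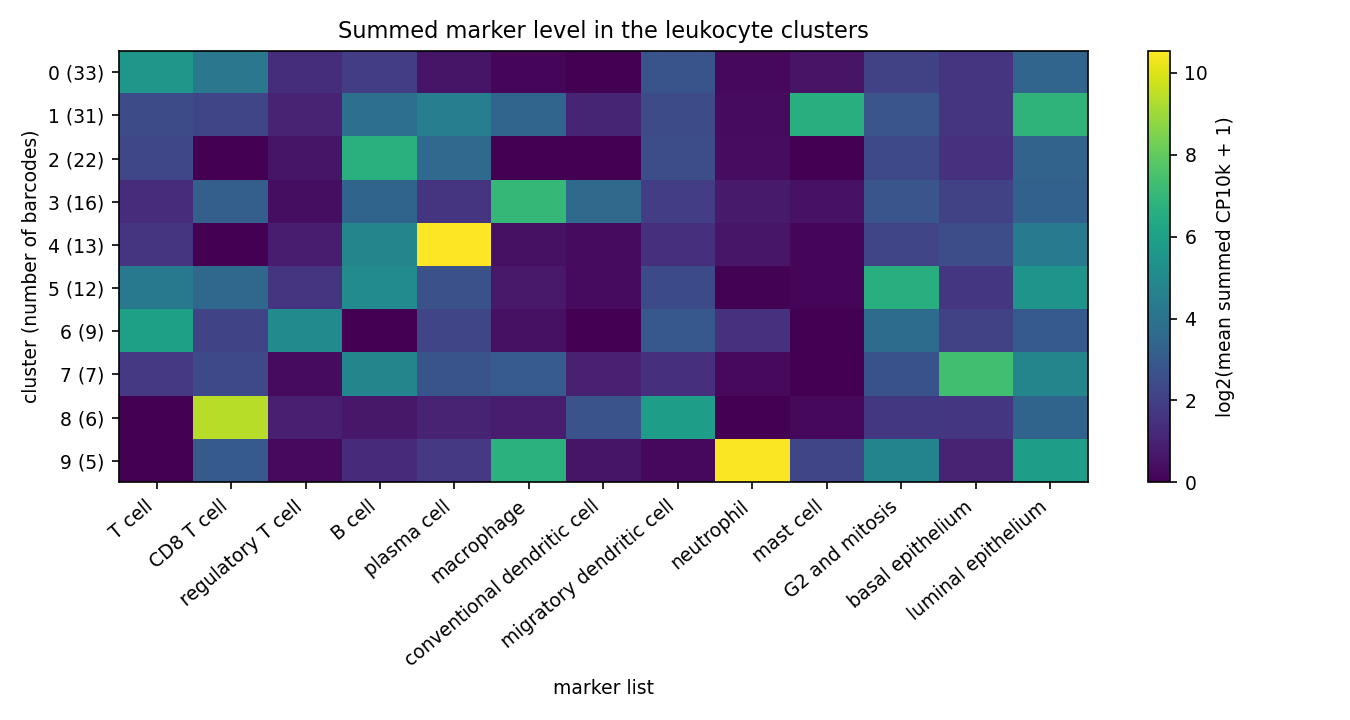
Mean summed level of the genes of 13 lists (x) in the 10 clusters (y, number of barcodes in brackets), as log2(CP10k + 1) in colour. Cluster 4 stands out in the plasma cell list, cluster 9 in the neutrophil list, cluster 8 in the CD8 T cell list, which holds Ccl5, and cluster 7 in the basal epithelium list.

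To ask how the genotype moved the transcripts, UMIs were summed per library and compared with edgeR's quasi-likelihood test, adjusted over all genes tested. In other leukocytes, 0 of 2390 genes (0%) passed an adjusted p of 0.05, and 78 had an unadjusted p under 0.05. DESeq2 called 11 of the 13465 genes to which it gave an unadjusted p (0.0817%). Of these 11, C1qa, Naaa, Krt17 and Cst3 were higher in Zeb1 MSKO and Plet1, S100a8, S100a9, Camp, Ngp, Chil3 and Elane lower. Of the lower ones, S100a8, S100a9, Camp, Ngp and Chil3 were among the leading genes of the neutrophil-like cluster 9. All 5 barcodes of that cluster lay in control at 8 weeks, so these calls rest on 1 library. With 1 library left out, the count depended on which library that was, and 1 genotype then rested on a single library. Simulated 8-fold changes were recovered at 66.7% and simulated 4-fold changes at 16.4% in this comparison, so changes of that size could have been missed. The simulation changed only genes at or above the median level and gave every gene the same dispersion. Recovery may thus be lower for weaker genes or genes carried by few barcodes. The genes named next have the smallest unadjusted p and the same direction at both ages, and did not pass the test.

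C1qa had 463.5 and 555 CPM in Zeb1 MSKO, against 116 and 85.3 CPM in control, at 9 and 8 weeks. The genotypes did not overlap, which the choice of genes favours. All 254 C1qa UMIs came from 12 of 98 barcodes, in control from 1 barcode per library. Its log2 fold change was 2.28 ± 0.42 (SE; edgeR adjusted p = 0.876). C1qb (2.20 ± 0.45) and C1qc (1.91 ± 0.41) gave an edgeR adjusted p of 0.891 each.

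Naaa, a lysosomal amidase, had 443 and 208 CPM in Zeb1 MSKO, against 7.27 and 17.1 CPM in control, at 9 and 8 weeks. It was carried by 14 barcodes, 1 of which held 39.8% of the UMIs, and its log2 fold change was 4.45 ± 0.69 (edgeR adjusted p = 0.469). Wfdc17 had 145 and 155 CPM in Zeb1 MSKO and 14.5 and 4.87 CPM in control (log2 fold change 4.13 ± 0.59, edgeR adjusted p = 0.469). Its 63 UMIs came from 13 of 98 barcodes, 38.1% of them from 1, and each control library had only 2. For both genes the genotypes did not overlap, which the choice by smallest p favours.

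Krt17, a keratin of basal epithelium, had 422 and 416 CPM in Zeb1 MSKO, against 58.1 and 29.2 CPM in control, at 9 and 8 weeks (log2 fold change 3.27 ± 0.51, edgeR adjusted p = 0.469). Of the 8 basal epithelium genes, all were detected, and their sum was 2352 and 1881 CPM in Zeb1 MSKO and 1395 and 236 CPM in control at 9 and 8 weeks. All 10 luminal epithelium genes were detected in other leukocytes, summing to 7305 and 3640 CPM in Zeb1 MSKO and 9089 and 6452 CPM in control. The part of epithelial RNA in these comparisons was not tested. In the barcodes that were not leukocytes the basal list summed to 4750 and 7016 CPM in Zeb1 MSKO and 6018 and 3618 CPM in control, at 9 and 8 weeks.

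The gene lists gave the same picture of no call. Of 12 macrophage genes, 7 were tested, 0 passed and all 7 had a fold change above 0, with a median log2 fold change of 1.91, against -0.0049 over all 2390 genes. They included C1qa, C1qb and C1qc, whose UMIs came from 12, 10 and 9 of 98 barcodes. Genes carried by so few barcodes are not separate evidence. Of 11 MHC class II genes, whose products present antigen to CD4 T cells, 10 were tested and 0 passed, with a median of 1.13 and 9 above 0. H2-Aa had 4836 and 3987 CPM in Zeb1 MSKO, against 1322 and 1734 CPM in control (log2 fold change 1.46 ± 0.44, edgeR adjusted p = 0.999). Of 10 B cell genes, 7 were tested, with a median of -0.37, and of 7 plasma cell genes, 4, with a median of -0.81; none passed.

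**Figure D4:**
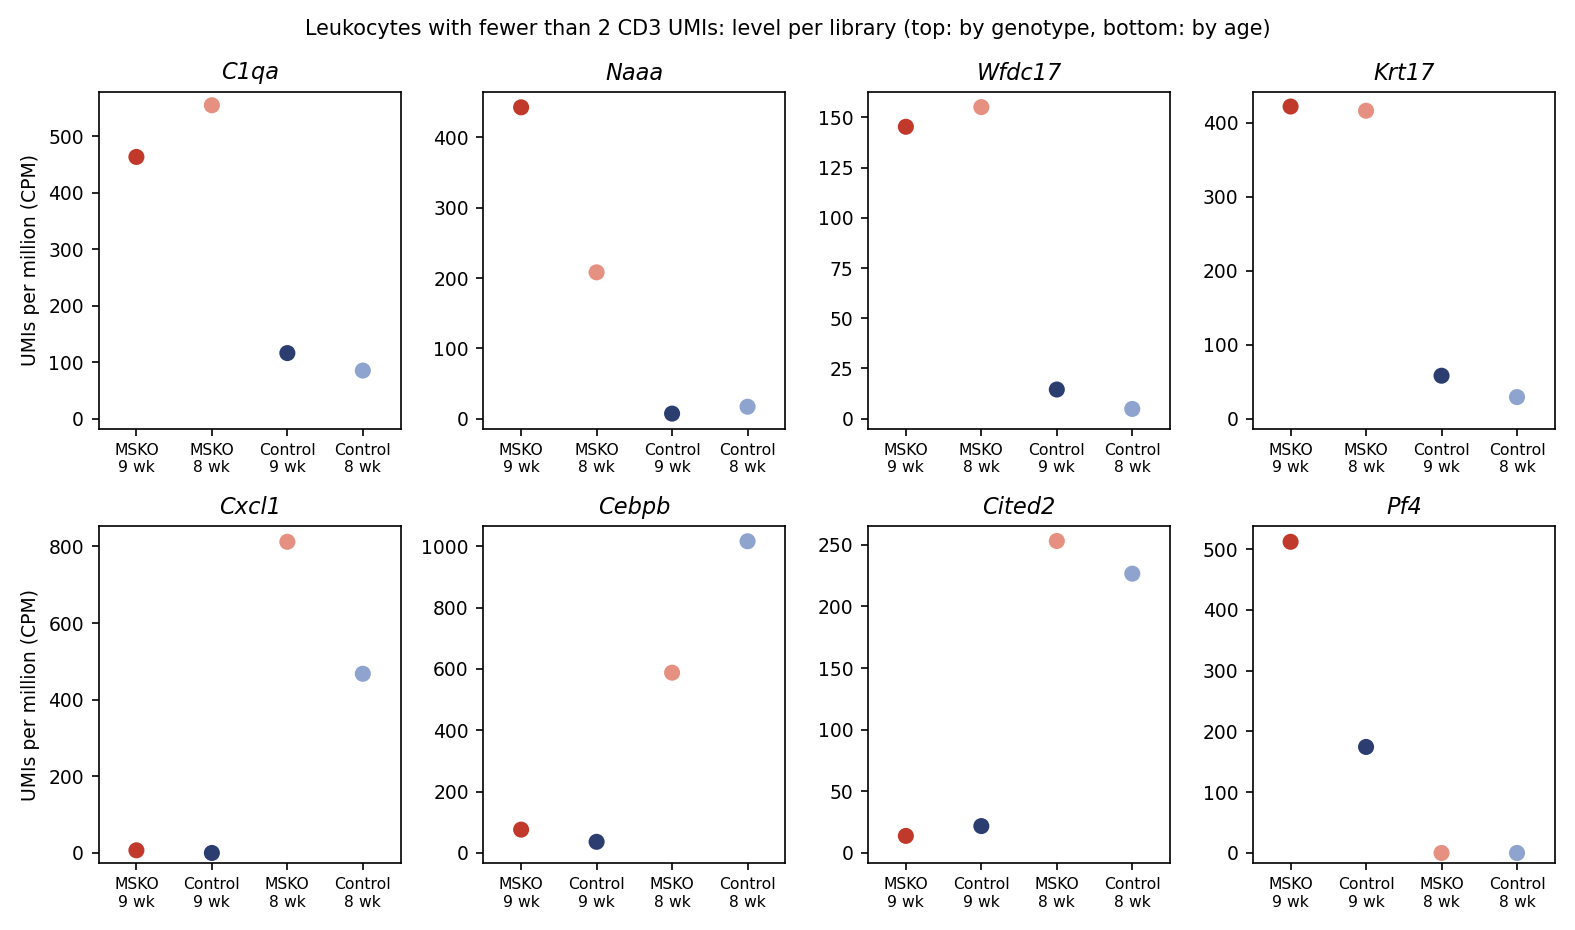
Level in other leukocytes (CPM) of 4 genes by genotype (top: C1qa, Naaa, Wfdc17, Krt17) and 4 by age (bottom: Cxcl1, Cebpb, Cited2, Pf4); each point is 1 library, with Zeb1 MSKO in red and control in blue. The genes were chosen by the smallest unadjusted p and the same direction in both pairs of libraries. That choice favours groups without overlap, as seen in every panel, and the share of all tested genes without overlap was not counted. None of the 8 genes passed edgeR's test.

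In T cells, control at 9 weeks had 9 barcodes, under the limit of 10, and stayed out of the test, which thus rested on 2 Zeb1 MSKO libraries and 1 of control, assumed to vary like the others. Of 1632 genes, 0 (0%) passed and 54 had an unadjusted p under 0.05. DESeq2 called 1 of 10647 (0.00939%), Ccl5. With libraries of at least 5 T cells, which brings in control at 9 weeks, edgeR called 0 of 1183 genes, and 43 had an unadjusted p under 0.05. Ccl5, a chemokine of activated T cells, had 1209 and 1071 CPM in Zeb1 MSKO, against 503 and 60.3 CPM in control, at 9 and 8 weeks. It came from 15 of 56 T cells, with 37.6% of UMIs in 1 barcode. Its log2 ratio of Zeb1 MSKO to control was 1.23 at 9 weeks and 3.76 at 8 weeks, each from 1 library per genotype. Icos, a costimulatory receptor, had 245 and 560 CPM in Zeb1 MSKO and 71.9 and 60.3 CPM in control at 9 and 8 weeks, log2 ratios of 1.53 and 2.85.

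Ly6d had 47.4 and 29.0 CPM in Zeb1 MSKO T cells and 204 and 808 CPM in control T cells at 9 and 8 weeks, log2 ratios of -1.73 and -4.08. Ly6d is also an epithelial transcript here, at 1334 CPM in the barcodes that were not leukocytes. Luminal epithelium genes in T cells summed to 3690 and 927 CPM in Zeb1 MSKO and 1366 and 6777 CPM in control, and their part in the Ly6d values was not tested. Of 9 genes of naive and recirculating T cells, 8 were tested on the 3 libraries and 0 passed, 3 with a fold change above 0 and 5 below.

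Over all leukocytes together, 0 of 3677 genes (0%) passed edgeR's test between genotypes, 120 had an unadjusted p under 0.05, and DESeq2 called 11 of 13984 (0.0787%). This count, too, depended on which library was left out, where 1 genotype then rested on a single library. Naaa, at 240 and 146 CPM in Zeb1 MSKO and 4.52 and 14.2 CPM in control, had the smallest p (log2 fold change 4.05 ± 0.58, edgeR adjusted p = 0.9996).

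By age, 0 of 2390 genes (0%) passed in other leukocytes, but 367 had an unadjusted p under 0.05, and DESeq2 called 24 of 13465 (0.178%). The edgeR count depended on which library was left out, where 1 age then rested on a single library. Different clusters held the class at the 2 ages: the B cell-like cluster 2 held 0 of 13 and 1 of 11 barcodes at 9 weeks in Zeb1 MSKO and control, against 11 of 31 and 10 of 43 at 8 weeks. The plasma cell-like cluster 4 held 0 and 0 at 9 weeks, against 4 and 9 at 8 weeks, and 3 of the 4 were called doublets. Cluster 1, most of which is rich in epithelial RNA, held 8 and 7 leukocytes at 9 weeks, against 2 and 14 at 8 weeks. Unlike clusters 2 and 4, cluster 1 includes T cells, 6 in all, so its counts are not of other leukocytes alone. The part of that makeup in the values by age was not tested. Cxcl1, a neutrophil-attracting chemokine, had 6.92 and 0 CPM at 9 weeks in Zeb1 MSKO and control, against 812 and 468 CPM at 8 weeks. It was found in 1 of 13 and 0 of 11 barcodes at 9 weeks and in 10 of 31 and 16 of 43 at 8 weeks (log2 fold change -7.20 ± 0.75, edgeR adjusted p = 0.134). In barcodes that were not leukocytes, the 17 chemokines, Cxcl1 among them, summed to 135 and 155 CPM at 9 weeks in Zeb1 MSKO and control, against 1167 and 1625 CPM at 8 weeks.

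Cebpb, a transcription factor of inflammatory and myeloid genes, had 76.1 and 36.3 CPM at 9 weeks in Zeb1 MSKO and control, against 588 and 1016 CPM at 8 weeks. It was spread over 65 of 98 barcodes, none with more than 10.6% of the UMIs (log2 fold change -3.75 ± 0.54, edgeR adjusted p = 0.150). The 14 myeloid transcription factors, Cebpb among them, summed in barcodes that were not leukocytes to 403 and 460 CPM at 9 weeks in Zeb1 MSKO and control, against 2600 and 1873 CPM at 8 weeks. The part of these age differences outside leukocytes in the Cxcl1 and Cebpb values was not tested. Cited2, a transcriptional coregulator, had 13.8 and 21.8 CPM at 9 weeks in Zeb1 MSKO and control and 253 and 227 CPM at 8 weeks, and the splicing factor Srsf2 had 55.3 and 50.9 CPM at 9 weeks and 555 and 348 CPM at 8 weeks. These 3 genes, unlike C1qa, were carried by 43 to 67 barcodes each.

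Pf4, a chemokine of platelets and some macrophages, ran the other way, with 512 and 174 CPM at 9 weeks in Zeb1 MSKO and control and 0 CPM at 8 weeks in both, but its 98 UMIs lay in 3 barcodes. All 16 ribosomal protein genes had a fold change above 0 at 9 weeks, with a median log2 fold change of 0.61, against -0.02 over all genes tested, and 0 passed. Rps12 had a log2 fold change of 1.06 ± 0.22 (edgeR adjusted p = 0.198). Ribosomal protein genes summed to 82560 and 75500 CPM in barcodes that were not leukocytes at 9 weeks in Zeb1 MSKO and control, against 65160 and 68990 CPM at 8 weeks. The 10 luminal epithelium genes also had a fold change above 0 in other leukocytes, with a median of 0.86 and 0 that passed. Barcodes with an epithelial level under 30 CP10k were 7 of 13 and 5 of 11 other leukocytes at 9 weeks and 27 of 31 and 32 of 43 at 8 weeks, and the part of the rest in these values was not tested. Of 12 heat shock genes, 10 were tested and 9 lay below 0, with a median of -0.67. Hspa1a, the inducible HSP70, had 270 and 211 CPM at 9 weeks in Zeb1 MSKO and control, against 1828 and 704 CPM at 8 weeks. The heat shock genes summed in barcodes that were not leukocytes to 6898 and 6120 CPM at 9 weeks in Zeb1 MSKO and control, against 10870 and 8794 CPM at 8 weeks, and the part of this difference was not tested.

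In T cells, the same age comparison gave 0 of 1632 genes (0%) past edgeR's test, 124 at an unadjusted p under 0.05 and 1 of 10647 (0.00939%), Acta2, by DESeq2; it used Zeb1 MSKO at 9 weeks alone against 2 libraries of 8 weeks. Acta2, the smooth muscle actin, stood at 1462 and 168 CPM at 9 weeks in Zeb1 MSKO and control, against 96.5 and 36.2 CPM at 8 weeks. A single barcode held 84.0% of its UMIs, 86.3% of those of Tagln and 87.7% of those of Tpm2. Without called doublets the count of genes past the test was 48. Of 22 immediate early and dissociation genes, 14 were tested, 2 with a fold change above 0 and 12 below. Over all 1632 genes, 788 lay above 0. The 22 genes summed in T cells to 2979 and 4981 CPM in Zeb1 MSKO at 9 and 8 weeks. In control they summed to 6856 and 6259 CPM, so that sum was not lower at 9 weeks. In barcodes that were not leukocytes the sum was 8225 and 7796 CPM at 9 weeks in Zeb1 MSKO and control. At 8 weeks it was 11170 and 10590 CPM, and the part of this difference was not tested. Jund, an immediate early transcription factor, had 158 and 527 CPM at 9 weeks in Zeb1 MSKO and control, against 666 and 989 CPM at 8 weeks. Atf3 of the same list went the other way, with 245 and 336 CPM at 9 weeks, against 9.65 and 12.1 CPM at 8 weeks. Its 61 UMIs came from 13 of 56 T cells.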

How the data were processed

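Droplet 3′ libraries (10x, v2 chemistry) of sorted mammary gland cells were analysed. The deposited values are raw UMI counts per gene and barcode. The submitters' processing notes name Cell Ranger (2.1.0) and the build mm10. The matrix joins the 4 libraries (36884 barcodes, 27998 genes), and the barcode suffix gives the library, per the labels. No other library was in the matrix.  The leukocyte rule, the gene lists and the named genes were chosen with earlier results of these data known, so they are no independent evidence.

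UMIs were summed per library and class (libraries with at least 10 barcodes of the class) and tested with edgeR 4.0.16 (quasi-likelihood, TMM, default filter on low counts, Benjamini-Hochberg adjusted p under 0.05); DESeq2 1.42.0 was an alternative, and recovery was tested on simulated data. Named genes were those with the smallest unadjusted p among genes of at least 20 CPM on average with the same direction in both pairs of libraries (10 per comparison), since fewer than 10 passed; other genes come from fixed lists. Shares called by DESeq2 are over all genes with an unadjusted p. Its default filter can leave some of them without an adjusted p, so fewer genes may have been open to a call. CPM and CP10k are counts per 1000000 and per 10000 UMIs of the class or barcode. Shares were compared by exact permutation over libraries and have Wilson 95% intervals, which, like the floor of 3 counts, cover counting error only. Clusters came from scanpy 1.11.5 (1000 variable genes, 15 components, 10 neighbours, Leiden resolution 1). Doublets were called per library by scrublet at an assumed 8% (3.71 to 6.58% of barcodes called) and kept in the main results. No barcode had fewer than 500 genes among leukocytes and 2 had over 10% mitochondrial counts. Upstream sequences are RefSeq, GRCm38.p6; coordinates of genes are GENCODE on the same assembly. Alternatives added after seeing the data were leaving out called doublets, libraries of at least 5 T cells, and thinning to 2000 UMIs. Some genes that the naming rule selects are not reported here.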

Additional observations from a re-analysis of the deposited data

Results flagged for a closer look

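The leukocyte share was nearly equal between genotypes at 9 weeks, and lower in Zeb1 MSKO than in control at 8 weeks. It was 0.0038 percentage points higher in Zeb1 MSKO than in control at 9 weeks, and the difference was -0.0972 points at 8 weeks, so the 2 differences were 0.101 points apart. With 1 library per genotype and age the difference was not tested, and the intervals of the 2 genotypes overlapped at each age.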

How the results depend on the processing

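The labels give no replicate numbers, so no replicate block exists; with age as a block between genotypes (leukocytes and other leukocytes), or genotype as a block by age (other leukocytes), 0 genes were called. Every main count of called genes was 0, so each count here is a gain. Over all leukocytes between genotypes, DESeq2 called 11, no filter on low counts 113, at least 10 leukocyte UMIs 1 (Cxcl13), leaving out barcodes rich in epithelial RNA 1 (Cxcl13), and leaving out 1 library 0 to 130. For T cells between genotypes, DESeq2 called 1, DESeq2 size factors in edgeR 4, no filter 18, without epithelial-rich barcodes 10 and the barcode quality filter 3. For other leukocytes between genotypes, DESeq2 called 11, no filter 97, and leaving out 1 library 0 to 111. For T cells by age, DESeq2 called 1, DESeq2 size factors 30, no filter 28, the quality filter 43 and leaving out called doublets 48. For other leukocytes by age, DESeq2 called 24, no filter 229, and leaving out 1 library 0 to 140. The cause was not tested. Where a library was left out, the lone library was assumed to vary like the others.

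The genotype difference in leukocyte share ranged from -0.217 to 0.124 points as each library was left out and turned positive without control at 8 weeks (0.124) or without Zeb1 MSKO at 9 weeks (0.0731). The age difference in that share was -0.0857 points with at least 10 leukocyte UMIs. The genotype difference in T cell share was -0.234 points with at least 1 CD3 UMI, and ranged from -1.63 to 16.3 points as each library was left out, negative without control at 8 weeks. The age difference in T cell share was 27.1 points without epithelial-rich barcodes and 5.31 points after thinning. Not run were the block, leaving out libraries and the limit of 10 leukocyte UMIs for T cells, and, for other leukocytes, that limit and the removal of epithelial-rich barcodes, because too few libraries kept 10 barcodes. Depth limits detection most in T cells, where 3 UMIs in a library are worth 23.7 to 36.2 CPM.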

Other observations

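Several transcripts in the leukocyte barcodes came from very few barcodes. Cxcl13, a B cell-attracting chemokine, had 888 UMIs in 3 of 98 other leukocytes, 78.6% of them in 1, with 0 and 775 CPM in Zeb1 MSKO and 0 and 1700 CPM in control at 9 and 8 weeks. Genes of B cell precursors were present in 8 of 98 other leukocytes, with at least 2 UMIs of Vpreb1, Vpreb3, Igll1 and Dntt, 0 of 13 and 2 of 31 in Zeb1 MSKO and 1 of 11 and 5 of 43 in control at 9 and 8 weeks. Igll1 had 84 UMIs in 2 barcodes, both in Zeb1 MSKO at 8 weeks.

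Leukocytes with division genes, at least 2 UMIs of Mki67, Top2a, Birc5 and Cdk1, were 22 of 154 (14.3%, Wilson 95% interval 9.63 to 20.7%). They were 5 of 26 and 6 of 49 in Zeb1 MSKO and 3 of 20 and 8 of 59 in control at 9 and 8 weeks, with a median of 13620 UMIs, against 6335 over all leukocytes.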
